A study of Mus musculus with 12 samples.

Results

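Cyclooxygenase-1 (COX-1), encoded by Ptgs1, is 1 of the enzymes that turn arachidonic acid into the precursor of the prostaglandins. COX-2 (Ptgs2) catalyses the same step and is usually the inducible form, and microsomal prostaglandin E synthase-1 (mPGES-1, Ptges) converts the shared product into prostaglandin E2. The prostaglandins leave the cell and act through G protein-coupled receptors, several of which change the level of cyclic AMP, and in tumors prostaglandin E2 is best known for its effects on immune cells and stroma.

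RNA sequencing was examined in the COX-1 knockout (ptgs1-KO) and in its scramble control, 6 of the 12 samples of the series, with 3 samples in each group. All 12 samples were cultured murine BrafV600E melanoma cells, a line started from a mouse on the C57BL/6 background with the alleles Braf+/LSL-V600E and p16INK4a-/- and the melanocyte Cre Tyr::CreERT2+/o, so that the controls carry the oncogenic Braf allele and lack p16 as well. The knockout was made with a CRISPR/CAS9 kit, puromycin was used for selection, and limiting dilution gave the subclones; the other samples are 3 each of ptgs2-KO and ptges-KO cells made in the same manner. Of 30705 genes in the table, 11282 had a mean of at least 1 RPKM (reads per kilobase of transcript, scaled to the size of the library) over the 12 samples and were tested, and every difference below is ptgs1-KO minus scramble on log2(RPKM + 1) unless another comparison is named.

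The sources call the 3 samples of a line either independent samples or different subclones. The p-values measure the spread between these samples, and what the guide did and what set the selected cells apart cannot be told apart with 1 knockout line. Estimated from the smallest steps of the values, the 6 libraries held between 14440000 and 16080000 reads. The 45S ribosomal RNA precursor (Rn45s) took between 0.63% and 1.28% of all RPKM in the scramble samples, and 0.934%, 0.798% and 5.27% in ptgs1-KO replicates 1, 2 and 3; small nucleolar RNAs summed to 112 to 161 RPKM in the other 5 samples and to 1026 in ptgs1-KO replicate 3. For this reason counts are also given without that replicate. Of 26 pigment cell genes, 9 were listed at 0 in all 6 samples, among them Sox10, Dct, Tyrp1, Mlana and Kit, and 7 passed the filter on low values. These 7 were Met (mean of 121 RPKM in scramble), Cdk2 (28.2), Gpnmb (15.9), Tfap2a (11.6), Pax3 (5.70), Mitf (2.68) and Slc24a5 (1.68). The label melanoma is taken from the origin of the line, and cell identity was not tested. Summed over their lists, markers of lymphocytes were at most 0.34 RPKM, markers of keratinocytes at most 1.67 RPKM, and those of macrophages ranged from 7.24 to 11.2 RPKM across the 6 samples. The sum of 9 fibroblast markers was higher in ptgs1-KO, 10.9 to 12.6 RPKM against 8.34 to 8.91 RPKM in scramble; nearly all of it was Pdgfra, at 8.06, 7.82 and 8.37 RPKM in scramble and 10.4, 11.1 and 9.86 RPKM in ptgs1-KO, and 3 of the 9 (Dcn, Lum and Col6a3) were listed at 0 in all 6 samples. The sum of 9 endothelial markers was lower, 5.72 to 6.94 against 7.48 to 8.42 RPKM; nearly all of it was Egfl7, and 4 of the 9 (Kdr, Tie1, Emcn and Cldn5) were listed at 0. Neither Pdgfra (adjusted p = 0.0614) nor Egfl7 (adjusted p = 0.104) passed the limma test, and the part of such cells in the results was not tested.

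Ptgs1 itself was read first. It was at 142, 164 and 149 RPKM in the scramble samples and at 16.9, 16.8 and 14.3 RPKM in the ptgs1-KO samples, which is 10.6% of the scramble mean (log2 difference -3.16 ± 0.10 SE, limma adjusted p = 4.27e-10). It stayed at 152 ± 18.2 RPKM in ptges-KO and 158 ± 11.7 RPKM in ptgs2-KO (SD, n = 3 each). Ptgs2 was at 749, 777 and 759 RPKM in scramble and at 624, 668 and 502 RPKM in ptgs1-KO (-0.36 ± 0.10, adjusted p = 0.0386), a call that was lost without ptgs1-KO replicate 3 (adjusted p = 0.0784), without ptgs1-KO replicate 1 (adjusted p = 0.0582) or without any single scramble sample (adjusted p from 0.0963 to 0.118). Ptges was lower in each ptgs1-KO sample, at 56.9, 55.0 and 51.5 RPKM against 78.0, 75.01 and 79.8 RPKM in scramble (-0.50 ± 0.08, adjusted p = 0.0011).

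Across the genome 1045 genes (9.26%) passed an adjusted p of 0.05, 525 higher (4.65%) and 520 lower (4.61%), and 140 of them differed by at least 1 on the log2 scale. The median difference of all genes was 0.01. In bulk RNA, fewer cells that express a gene and less of its RNA per cell cannot be told apart. Without ptgs1-KO replicate 3 the count was 1008 (8.93%), of which 653 were higher (5.79%) and 355 lower (3.15%), and 806 genes were called in both fits. Without scramble replicate 1 it was 645 and without scramble replicate 2 it was 658.

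**Figure D1:**
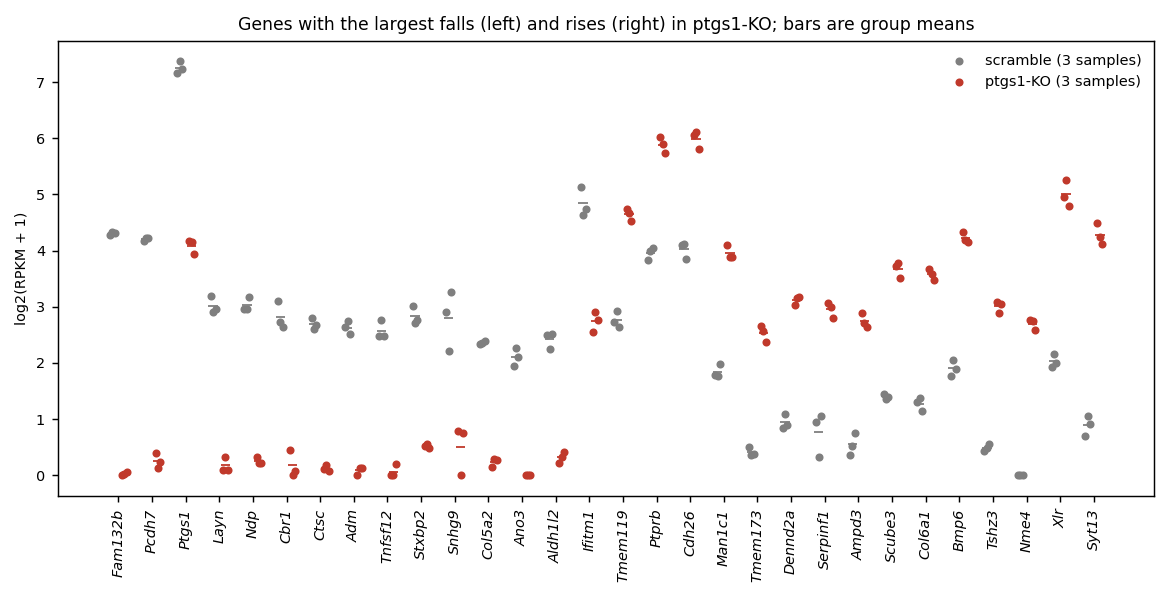
Level of the 15 genes with the largest falls and the 15 with the largest rises in ptgs1-KO, as log2(RPKM + 1), with 1 point for each of 3 scramble and 3 ptgs1-KO samples and a bar for each group mean. The groups were chosen not to overlap; Fam132b, Tnfsf12 and Ano3 lie at or near 0 in ptgs1-KO, and Nme4 is listed at 0 in scramble.

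Several of the largest falls ended near 0. Fam132b, the hormone erythroferrone that acts on iron metabolism, was at 18.5, 19.2 and 18.8 RPKM in scramble and at 0, 0.02 and 0.04 RPKM in ptgs1-KO (-4.28 ± 0.09, adjusted p = 5.9e-12). Pcdh7, a protocadherin of cell adhesion, was at 17.0, 17.6 and 17.6 RPKM against 0.32, 0.10 and 0.18 RPKM (-3.94 ± 0.12, adjusted p = 4.27e-10). Tnfsf12, the cytokine TWEAK, was at 4.56, 5.81 and 4.57 RPKM against 0, 0 and 0.15 RPKM (-2.51 ± 0.14, adjusted p = 7.31e-08). No ptgs1-KO sample reached 1 RPKM for these 3 genes, and in ptgs2-KO and ptges-KO Fam132b and Tnfsf12 were within 0.40 of scramble on the log2 scale.

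Ano3, a member of the anoctamin family of membrane proteins, was at 2.87, 3.84 and 3.31 RPKM in scramble and listed at 0 in all 3 ptgs1-KO samples. Cbr1, a carbonyl reductase that can reduce prostaglandin E2, was at 7.55, 5.64 and 5.26 RPKM against 0.37, 0 and 0.06 RPKM (-2.65 ± 0.15, adjusted p = 1.18e-07). Its relative Cbr3 went the other way, from 1.73, 0.99 and 1.36 to 3.85, 3.12 and 4.02 RPKM (0.99 ± 0.13, adjusted p = 0.000311). The remaining large falls, each below 1 RPKM in every ptgs1-KO sample except Ifitm1, were the hyaluronan receptor Layn (-2.84), the Wnt receptor ligand Ndp (-2.77), the lysosomal protease Ctsc (-2.58), the peptide hormone Adm (-2.54), the vesicle fusion regulator Stxbp2 (-2.30), the snoRNA host gene Snhg9 (-2.28), the collagen chain Col5a2 (-2.12), the mitochondrial folate enzyme Aldh1l2 (-2.10) and the interferon-induced membrane protein Ifitm1 (-2.10). The call of Snhg9 was lost without ptgs1-KO replicate 2 or scramble replicate 1 or 3, with an adjusted p of up to 0.0599.

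Among the rises, Syt13, a synaptotagmin, went from 0.63, 1.08 and 0.89 RPKM to 21.5, 17.9 and 16.3 RPKM (3.39 ± 0.13, adjusted p = 3.52e-09). Bmp6, a bone morphogenetic protein, went from 2.39, 3.16 and 2.70 RPKM to 19.14, 17.2 and 16.9 RPKM (2.32 ± 0.10, adjusted p = 1.15e-08). Tmem173, which encodes the cytosolic DNA pathway adaptor STING, went from 0.41, 0.29 and 0.30 RPKM to 5.31, 4.95 and 4.17 RPKM (2.12 ± 0.13, adjusted p = 1.82e-07). Genes named here were chosen to have no overlap between the groups. For each of these genes the lowest ptgs1-KO sample was above 4 RPKM and the highest scramble sample below 3.2 RPKM.

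Nme4, a mitochondrial nucleoside diphosphate kinase, was listed at 0 in all 3 scramble samples and at 5.78, 5.71 and 5.04 RPKM in ptgs1-KO. The other large rises were Xlr (2.98), whose close copies on chromosome X may share its reads, the transcription factor Tshz3 (2.51), the collagen chain Col6a1 (2.30), the secreted proteins Scube3 (2.27) and Serpinf1 (2.19), the AMP deaminase Ampd3 (2.19), the Rab exchange factor Dennd2a (2.18), the Golgi mannosidase Man1c1 (2.11), the cadherin Cdh26 (1.97), the vascular phosphatase Ptprb (1.93) and the membrane protein Tmem119 (1.89). Cdh26 and Ptprb were the most abundant of these in ptgs1-KO, with 54.8 to 68.3 RPKM and 52.5 to 64.0 RPKM. Several rises and falls were shared with another line. Syt13 was also 2.81 above scramble in ptgs2-KO and 1.99 above it in ptges-KO, and Layn was 2.49 and 1.31 below it. Ifitm1 was 1.93 below scramble in ptgs2-KO and 1.52 below it in ptges-KO. In ptges-KO Nme4 was 3.27 and Tshz3 2.07 above scramble, and Ndp was 2.80 below it. Others moved the opposite way, such as Ctsc in ptges-KO and Col5a2 in ptgs2-KO. These comparisons use the same scramble samples.

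Chromosome 3 stood apart from every other chromosome. Of its 532 tested genes 185 were lower (34.8%) and 10 higher, whereas on the other autosomes and X the lower genes were between 1.32% and 4.02% of those tested. The median difference was -0.29 on chromosome 3 and between -0.003 and 0.041 on the others, and 88.7% of its tested genes had a negative difference. In 322 of the 532 genes (60.5%) every ptgs1-KO sample was below every scramble sample, against 13.2% of all genes tested. Thus 185 of the 520 lower genes of the whole comparison lay on this chromosome, and off it 850 genes were called (7.91%), 515 higher (4.79%) and 335 lower (3.12%).

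The shift was alike in the 3 knockout samples. Taken as the median of its genes relative to the scramble mean and to all other chromosomes, chromosome 3 was at -0.32, -0.29 and -0.31 in ptgs1-KO replicates 1, 2 and 3 and between -0.004 and 0.006 in the scramble samples. No other chromosome in ptgs1-KO lay outside -0.024 to 0.048. An exact two-sided permutation test of 3 against 3 samples cannot go below 0.10, and 8 other chromosomes reached that value too, with far smaller medians, so this p does not set chromosome 3 apart. Without ptgs1-KO replicate 3 the median was -0.24 and 117 genes were lower. The median of all other tested genes was 0.06 in that fit and 0.02 with all samples. Without scramble replicate 1, 2 or 3 the lower genes of chromosome 3 numbered 99, 115 and 110.

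**Figure D2:**
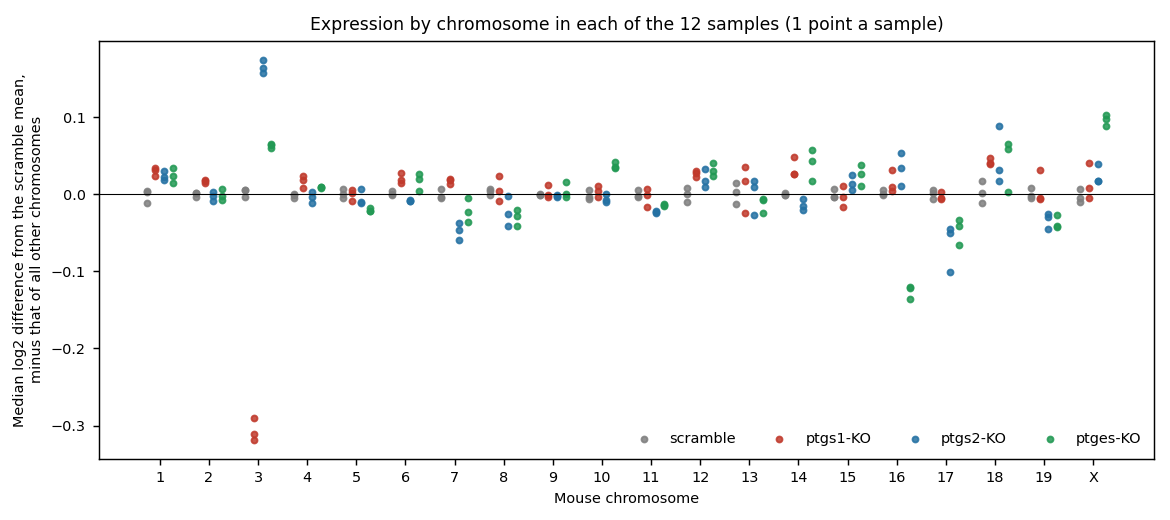
Median log2 difference from the scramble mean over the tested genes of each mouse chromosome, minus the same median over all other chromosomes, with 1 point for each of the 12 samples. On chromosome 3 the ptgs1-KO samples lie between -0.32 and -0.29 and the ptgs2-KO samples between 0.16 and 0.17, while the scramble samples stay within 0.02 of 0 on every chromosome.

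The lower expression was spread over the length of the chromosome and over all levels. In 16 windows of 10 Mb all medians were negative, and in the 11 windows with at least 20 tested genes they ranged from -0.35 to -0.17. Genes under 5 RPKM in scramble had a median of 80.7% of the scramble level and genes over 50 RPKM a median of 80.5%. In ptgs2-KO the median of the same chromosome was 0.18 above scramble, and in ptges-KO 0.03 above it. The windows of ptges-KO differed along the chromosome, and those up to 80 Mb had medians of 0.18 to 0.49. Those from 80 to 100 Mb had medians of 0.06 and 0.17, and those from 100 to 160 Mb of -0.28 to -0.07. Compared directly, 336 of the 532 genes were lower and 18 higher in ptgs1-KO than in ptgs2-KO, where 23.6% of all genes tested were called (12.1% lower, 11.6% higher), and 273 were lower and 29 higher than in ptges-KO, where 30.2% were called (13.2% lower, 17.0% higher). Only RNA was measured, and no cause of the shift was tested.

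**Figure D3:**
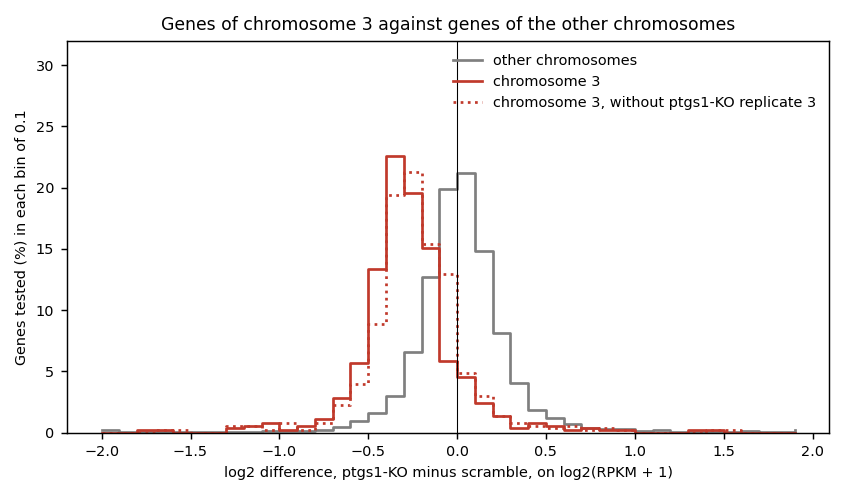
Distribution of the log2 difference between ptgs1-KO and scramble in bins of 0.1, as percent of the tested genes of chromosome 3 (532 genes, red) and of the other chromosomes (grey); values beyond 2 on either side are counted in the end bins. The median of chromosome 3 lies at -0.29, and at -0.24 without ptgs1-KO replicate 3 (dotted). The median of all other tested genes is 0.02, and 0.06 without that replicate.

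Named members of gene families on chromosome 3 were mostly lower. Nes, the intermediate filament nestin, was at 3.53, 1.88 and 4.66 RPKM in scramble and at 0.44, 0.19 and 0.18 RPKM in ptgs1-KO (-1.73 ± 0.20, adjusted p = 8.8e-05). Of the S100 calcium-binding proteins, whose genes sit in a cluster there, 10 were tested, 9 of them on this chromosome. In limma 4 were lower and 0 higher. At an unadjusted p under 0.05, 6 were lower and 0 higher, where 2663 of all 11282 genes tested passed in either direction. S100a1 was at 17.4, 11.2 and 16.9 against 5.36, 7.43 and 4.54 RPKM (-1.25 ± 0.21, adjusted p = 0.00187). All 4 lower S100 genes lie on chromosome 3, where 34.8% of all tested genes were lower. Without scramble replicate 1 or 2 the S100 count was 2. The glutathione transferase Gstm5 (-1.07), the extracellular matrix protein Ecm1 (-0.99) and the fatty acid carrier Fabp5 (-0.76) fell as well.

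The 10 genes of chromosome 3 that rose included Ptgfr, the receptor of prostaglandin F2-alpha, at 0.57, 0.94 and 1.14 RPKM in scramble and 4.01, 4.61 and 4.23 RPKM in ptgs1-KO (1.50 ± 0.13, adjusted p = 5.74e-06). Txnip, the thioredoxin inhibitor, rose by 0.75 and Gstm1 by 0.57. Ptgfr and Cbr1 were the 2 called genes among 19 tested members of the prostanoid pathway other than the 3 knockout targets, against 9.26% of all genes tested, and the median of that list was 0.03. Of 15 tested genes known to respond to cyclic AMP, 1 was lower, the EGF receptor ligand Areg at 37.0, 34.8 and 36.6 against 21.9, 21.7 and 22.96 RPKM, and 1 higher, the transcription factor Cebpb (0.36). With 2 called genes each, both lists lay near the share called among all genes.

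Genes activated by p53, the transcription factor that restrains damaged cells, were lower. Of 35 tested members 14 were lower and 1 higher, where 4.61% and 4.65% of all genes tested were. A negative difference was seen in 28, with a median of -0.32 against 0.01 for all genes tested. The list fell to 9 lower genes without scramble replicate 1, and to 10 without ptgs1-KO replicate 3; with chromosome 3 left out, 13 remained. The cell cycle inhibitor Cdkn1a was at 133, 129 and 137 RPKM in scramble and 97.7, 92.1 and 85.05 RPKM in ptgs1-KO (-0.53 ± 0.07, adjusted p = 0.000203). The cyclin Ccng1 was at 257, 287 and 278 against 183, 178 and 147 RPKM (-0.70 ± 0.09, adjusted p = 0.000268). In both genes the highest knockout sample lay below the lowest control sample, and 99.8% of all called genes had no overlap between the groups.

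The other members with large falls were the adenylate kinase Ak1 (-0.98), the antiproliferative gene Btg2 (-0.93), the death receptor Tnfrsf10b (-0.73), the RNA-binding protein Zmat3 (-0.67, on chromosome 3) and Trp53inp1 (-0.58), whose call was lost without scramble replicate 2 or ptgs1-KO replicate 2. The member that rose was Gadd45a (0.41 ± 0.12, adjusted p = 0.0425), not called without ptgs1-KO replicate 3. Set against ptgs2-KO directly, 22 of the 35 genes were lower in ptgs1-KO and 1 higher, where 12.1% and 11.6% of all genes tested were. Against ptges-KO 19 were lower and 3 higher, where 13.2% and 17.0% were. The genes of DNA replication and mitosis hardly moved in the same samples: 1 of 46 replication genes was called (E2f1, 0.25) and 1 of 45 mitosis genes (Ccna2, -0.37, a gene of chromosome 3), with medians of 0.03 and -0.03.

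**Figure D4:**
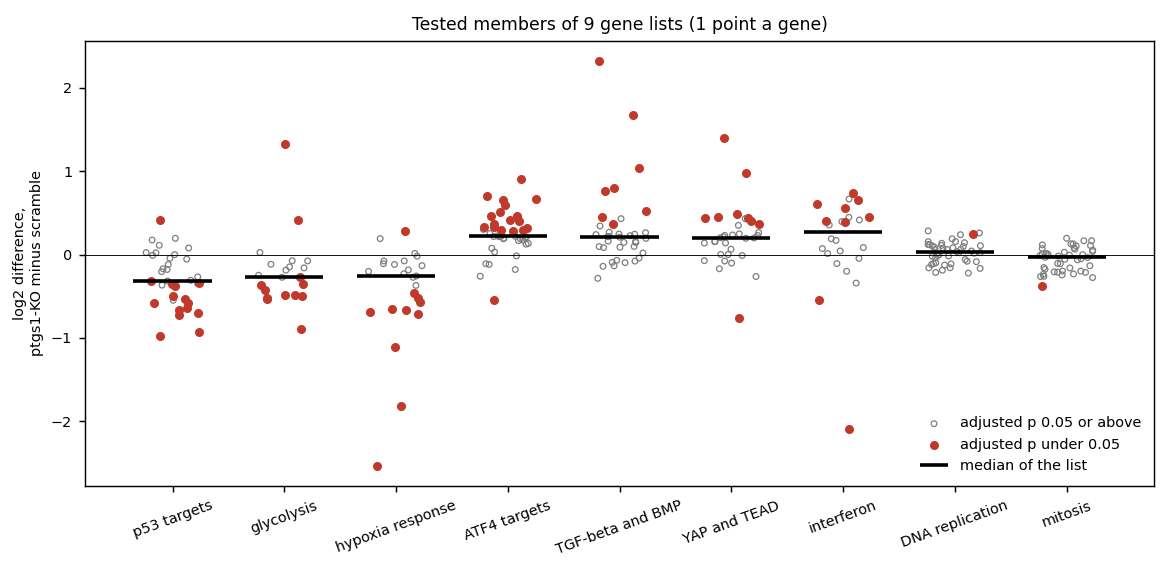
Log2 difference between ptgs1-KO and scramble of each tested member of 9 gene lists, with red points for members at an adjusted p under 0.05, open points for the others and a bar for the median. The medians lie at -0.32 for p53 targets, -0.27 for glycolysis and -0.26 for the hypoxia response, at 0.22 for ATF4 targets and 0.21 for the TGF-beta and BMP list, and near 0 for DNA replication and mitosis.

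Glycolysis genes and genes induced by low oxygen fell together. Of 21 tested glycolysis genes 10 were lower and 2 higher (median -0.27), and of 25 other hypoxia response genes 10 were lower and 1 higher (median -0.26). Among all genes tested 4.61% were lower and 4.65% higher. Lactate leaves the cell through the transporter Slc16a3, which was at 270, 302 and 253 RPKM in scramble and 163, 160 and 122 RPKM in ptgs1-KO (-0.89 ± 0.12, adjusted p = 0.000263). The glucose transporter Slc2a1 was at 262, 288 and 250 against 205, 196 and 160 RPKM (-0.52 ± 0.10, adjusted p = 0.00575). The glycolytic enzymes Pfkl and Pgam1 were both lower by 0.49, and the lactate transporter Slc16a1, on chromosome 3, by 0.53.

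The muscle-type enolase Eno3 moved against its list, from 30.0, 25.9 and 24.1 RPKM to 67.4, 77.1 and 60.8 RPKM (1.33 ± 0.11, adjusted p = 2.44e-06). Egln3, an oxygen-sensing prolyl hydroxylase that marks the hypoxia response, was at 2.90, 2.87 and 3.58 RPKM in scramble and 0.23, 0.07 and 0.19 RPKM in ptgs1-KO (-1.82 ± 0.12, adjusted p = 4.73e-07). Bnip3, a mitophagy receptor, was at 102, 104 and 107 against 68.9, 72.9 and 57.0 RPKM (-0.66 ± 0.09, adjusted p = 0.000383). Adm (-2.54), the mitochondrial adenylate kinase Ak4 (-1.10), Ankrd37 (-0.71), Fam162a (-0.70) and Higd1a (-0.66) were lower as well, the last with an adjusted p of up to 0.111 when scramble replicate 1 or ptgs1-KO replicate 1 was left out. Leaving out 1 sample left 7 to 9 lower glycolysis genes and 8 to 10 lower hypoxia genes.

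The direction differed from that in ptges-KO. There the median of the glycolysis list was 0.52 above scramble and that of the hypoxia list 0.41 above it, and in ptgs2-KO 0.09 above and 0.09 below it, all against the same scramble samples. In the direct comparison 17 of the 21 glycolysis genes and 20 of the 25 hypoxia genes were lower in ptgs1-KO than in ptges-KO, where 13.2% of all genes tested were. Per sample, the median of the glycolysis list was -0.18, -0.31 and -0.34 in ptgs1-KO, and 0.49, 0.50 and 0.55 in ptges-KO. Adm lay on both sides of scramble: it was 2.54 lower in ptgs1-KO and 3.24 higher in ptges-KO. In ptgs2-KO it was 2.44 lower than scramble, and the difference of -0.09 between ptgs1-KO and ptgs2-KO did not pass the limma test (adjusted p = 0.596).

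Genes of amino acid supply that the stress factor ATF4 activates rose. ATF4 induces transporters and enzymes that restore amino acids when the integrated stress response is on. Of 43 tested members 17 were higher and 1 lower, where 4.65% and 4.61% of all genes tested were. A positive difference was seen in 37, and the median was 0.22. Leaving out 1 sample left 11 higher genes (without ptgs1-KO replicate 1) to 19 (without ptgs1-KO replicate 3). The promoters of 3 members are shown because they carry the CARE, the composite element that ATF4 binds, searched as TGATGNAA on both strands; they are RefSeq sequences (GRCm38.p6) of 250 bases before to 50 bases after the start, in gene direction, with the match in capitals:
Trib3 (chr2:152344011-152344310, minus strand): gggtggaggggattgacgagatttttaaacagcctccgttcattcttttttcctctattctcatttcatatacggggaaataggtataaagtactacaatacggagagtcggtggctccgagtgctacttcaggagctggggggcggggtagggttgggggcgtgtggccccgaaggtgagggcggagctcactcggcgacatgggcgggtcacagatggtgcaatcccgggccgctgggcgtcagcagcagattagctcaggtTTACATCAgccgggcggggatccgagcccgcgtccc
Pck2 (chr14:55540016-55540315, plus strand): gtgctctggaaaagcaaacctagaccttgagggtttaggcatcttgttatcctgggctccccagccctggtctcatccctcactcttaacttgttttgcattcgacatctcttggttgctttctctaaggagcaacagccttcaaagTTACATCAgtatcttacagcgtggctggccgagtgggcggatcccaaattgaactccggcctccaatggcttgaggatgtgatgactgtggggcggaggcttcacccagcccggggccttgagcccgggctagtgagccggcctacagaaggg
Pycr1 (chr11:120643699-120643998, minus strand): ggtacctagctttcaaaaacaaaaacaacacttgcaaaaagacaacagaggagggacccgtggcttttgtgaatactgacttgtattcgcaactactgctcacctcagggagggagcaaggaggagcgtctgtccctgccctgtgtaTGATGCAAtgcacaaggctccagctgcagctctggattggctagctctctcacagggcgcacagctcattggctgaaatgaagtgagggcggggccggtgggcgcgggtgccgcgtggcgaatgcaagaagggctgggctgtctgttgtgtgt
These letters were found in 8 of the 15 higher members with a promoter in the table, in 6 of 20 members that were not called and in 4.51% of all 27025 genes with a promoter in the table. The list was drawn up from known ATF4 targets, so the shares describe the list and not the knockout.

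Trib3, a pseudokinase that feeds back on ATF4, was at 49.5, 46.9 and 49.2 RPKM in scramble and 97.6, 94.1 and 83.6 RPKM in ptgs1-KO (0.90 ± 0.07, adjusted p = 2.96e-06). Pck2, the mitochondrial phosphoenolpyruvate carboxykinase, was at 80.4, 81.8 and 81.8 against 133, 132 and 136 RPKM (0.71 ± 0.07, adjusted p = 1.32e-05). The transcription factor Atf5 was at 127, 123 and 124 against 216, 192 and 190 RPKM (0.67 ± 0.07, adjusted p = 5.08e-05). None of these 3 genes overlapped between the groups, which held for 99.8% of all called genes. Each of the 3 was also above ptgs2-KO and ptges-KO in the direct tests. The proline enzyme Pycr1 rose by 0.65 and the cystine transporter Slc7a11, although on chromosome 3, by 0.59; the latter was not called without ptgs1-KO replicate 1 or 2 or scramble replicate 1 (adjusted p up to 0.0624). The branched-chain aminotransferase Bcat1 fell by 0.54. In ptges-KO 17 of the 43 genes were above scramble and 2 below, where 11.9% and 14.4% of all genes tested were, and in ptgs2-KO 5 were above and 4 below, where 5.97% and 5.17% were. These comparisons share the scramble samples.

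For the genes lower in ptgs1-KO, 2 promoters with the core of the hypoxia response element, searched as ACGTG on both strands, are given in the same form, the first of the oxygen sensor and the second of the lactate exporter:
Egln3 (chr12:54203825-54204124, minus strand): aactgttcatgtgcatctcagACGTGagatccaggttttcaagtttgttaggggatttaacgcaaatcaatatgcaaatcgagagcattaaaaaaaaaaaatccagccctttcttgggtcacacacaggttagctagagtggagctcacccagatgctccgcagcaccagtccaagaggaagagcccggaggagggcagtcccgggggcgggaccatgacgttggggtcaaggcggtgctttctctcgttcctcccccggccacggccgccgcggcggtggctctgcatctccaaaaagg
Slc16a3 (chr11:120948817-120949116, plus strand): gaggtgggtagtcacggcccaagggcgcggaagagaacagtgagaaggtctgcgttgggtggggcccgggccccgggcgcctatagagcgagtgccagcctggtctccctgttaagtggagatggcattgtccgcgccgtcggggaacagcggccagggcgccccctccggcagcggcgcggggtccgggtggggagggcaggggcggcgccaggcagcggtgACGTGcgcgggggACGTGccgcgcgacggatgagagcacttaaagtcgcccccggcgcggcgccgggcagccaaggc
The element is short and was present in 21.8% of all genes with a promoter in the table. It was found in 8 of the 9 lower hypoxia genes and 7 of the 10 lower glycolysis genes with a promoter in the table, and in 8 of 11 and 5 of 9 members that were not called. Both lists were drawn up from known pathway genes, so these shares, too, describe the lists and not the knockout.

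**Figure D5:**
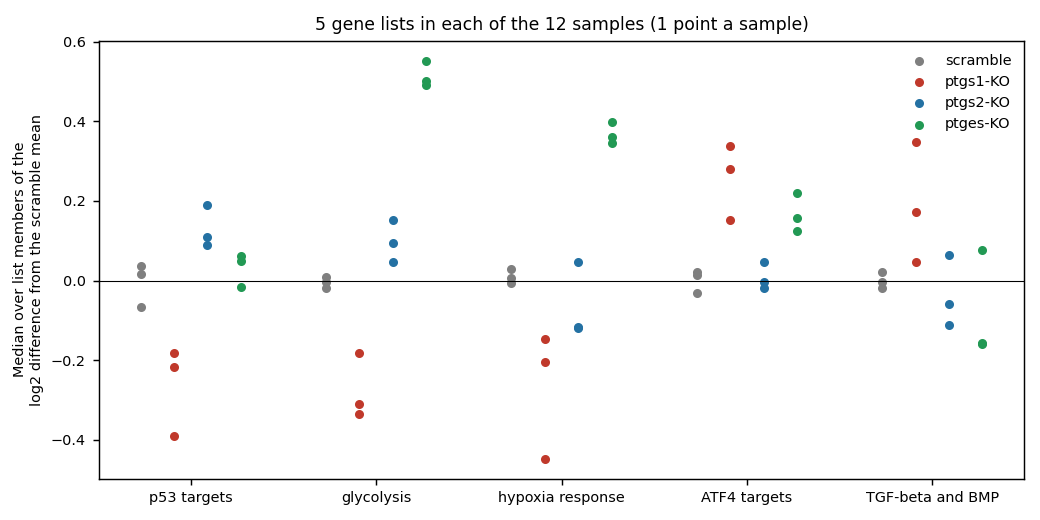
Median over the tested members of 5 gene lists of the log2 difference from the scramble mean, with 1 point for each of the 12 samples. In glycolysis and the hypoxia response the ptgs1-KO samples lie below 0 and the ptges-KO samples between 0.35 and 0.55; ptgs1-KO replicate 3 is the lowest of the ptgs1-KO samples in all 5 lists.

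In the TGF-beta, activin and BMP list, ligands, an antagonist and target genes rose. Of 38 tested members 8 were higher and 0 lower in limma, where 4.65% and 4.61% of all genes tested were. At an unadjusted p under 0.05, 15 were higher and 1 lower, where 2663 of all 11282 genes tested passed in either direction. The median was 0.21, and leaving out 1 sample left 6 to 9 higher genes. Besides Bmp6, the BMP antagonist Grem1 was at 60.3, 63.1 and 65.3 RPKM in scramble and 223, 215 and 173 RPKM in ptgs1-KO (1.67 ± 0.10, adjusted p = 2.08e-07). The target and inhibitory factor Smad6 was at 3.57, 3.81 and 2.85 against 9.21, 8.28 and 6.69 RPKM (1.04 ± 0.14, adjusted p = 0.00027), and Id3, another BMP target, at 117, 94.4 and 107 against 187, 206 and 164 RPKM (0.80 ± 0.10, adjusted p = 0.000268). The ligand subunit Inhba rose by 0.76 and the ligand Tgfb1 by 0.52. In the direct comparisons 16 of the 38 genes were higher and none lower than in ptgs2-KO, where 11.6% and 12.1% of all genes tested were. Against ptges-KO 17 were higher and 1 lower, where 17.0% and 13.2% were. Grem1 was 1.11 below scramble in ptges-KO.

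YAP and TEAD genes, which read out cell contact and tension, counted 8 higher and 1 lower of 33 (median 0.20). Among all genes tested 4.65% were higher and 4.61% lower. Without ptgs1-KO replicate 2 or scramble replicate 2, 4 higher genes were left. Igfbp3, a binding protein of insulin-like growth factors, was at 176, 175 and 160 RPKM in scramble and 497, 481 and 386 RPKM in ptgs1-KO (1.40 ± 0.09, adjusted p = 4.97e-07), and it was 1.26 below scramble in ptgs2-KO. The factor Tead3 rose by 0.98 and the coagulation receptor F3, on chromosome 3, by 0.49. Fstl3, an activin antagonist, was at 0.66, 0.82 and 0.81 RPKM in scramble and 0, 0.03 and 0.08 RPKM in ptgs1-KO.

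Among genes of the matrix other than collagens, 5 of 14 laminin and basement membrane genes were higher and 1 lower. The shares over all genes tested were 4.65% higher and 4.61% lower. Without ptgs1-KO replicate 1 or 2 or without scramble replicate 2 or 3, 3 higher genes were left. Fibronectin (Fn1) was at 41.0, 45.5 and 45.1 RPKM in scramble and 104, 100 and 92.3 RPKM in ptgs1-KO (1.16 ± 0.12, adjusted p = 2.6e-05). Nid2, a nidogen that links laminin to collagen IV, was at 10.0, 10.2 and 9.65 against 29.8, 28.6 and 22.3 RPKM (1.34 ± 0.13, adjusted p = 1.29e-05). The integrin subunit Itga4, a fibronectin receptor, rose by 1.25. Npnt, an integrin ligand on chromosome 3, fell by 1.17. Of 23 matricellular genes 7 were higher (30.4%) and 4 lower (17.4%), led by Wisp2 (1.06) and Ecm1 (-0.99). Without ptgs1-KO replicate 2 or scramble replicate 2, 4 were higher. The urokinase Plau was at 3.96, 3.67 and 3.73 against 0.36, 0.39 and 0.40 RPKM (-1.79 ± 0.13, adjusted p = 1.01e-06), and the lysyl oxidase Loxl3 rose by 0.62.

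Genes of neural crest and undifferentiated melanoma cells went both ways, 6 higher and 4 lower of 22, with 3 higher without ptgs1-KO replicate 1. Of all genes tested 4.65% were higher and 4.61% lower. The water channel Aqp1 was at 10.7, 11.2 and 12.4 RPKM in scramble and 41.2, 41.1 and 33.5 RPKM in ptgs1-KO (1.67 ± 0.13, adjusted p = 1.91e-06), and the factor Snai2 rose by 0.76. The adhesion protein Tgfbi (-2.08) and the homeobox factor Msx1 (-1.01) fell. Of the 7 pigment cell genes tested 1 was called: Gpnmb, a glycoprotein of melanosomes and lysosomes, at 16.1, 15.1 and 16.6 against 52.9, 53.4 and 47.2 RPKM (1.62 ± 0.10, adjusted p = 2.65e-07). Gpnmb and Aqp1 were 1.93 and 1.68 below scramble in ptges-KO.

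Signalling families split between rises and falls, beside 4.65% higher and 4.61% lower among all genes tested. Of 35 axon guidance genes 7 were higher and 8 lower (3 lower without scramble replicate 2), with the repellent Slit3 at 73.8, 84.2 and 82.9 against 198, 174 and 162 RPKM (1.13 ± 0.12, adjusted p = 5.85e-05) and the semaphorin receptor Nrp1 at 4.19, 4.61 and 4.55 against 1.38, 1.57 and 1.57 RPKM (-1.12 ± 0.12, adjusted p = 6.54e-05). Of 28 growth factor genes 7 were higher and 6 lower (3 higher without ptgs1-KO replicate 1 or 2, 4 without scramble replicate 1), among them Pdgfb (0.88), Vegfc (-0.72) and Areg (-0.68). The receptor kinase Fgfr1 was at 21.4, 18.97 and 22.8 against 49.5, 48.3 and 42.3 RPKM (1.11 ± 0.11, adjusted p = 3e-05). Of 31 Wnt genes 6 were higher, among them the ligand Wnt5a (0.72) and the receptors Ror2 (0.63) and Fzd4 (0.59), and 3 lower, among them Ndp (-2.77) and Wnt7b (-1.07, not called without ptgs1-KO replicate 3). The higher Wnt genes numbered 3 without ptgs1-KO replicate 1 or scramble replicate 1, and the lower ones 1 without ptgs1-KO replicate 2 or 3 or scramble replicate 3.

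Innate immune genes expressed at low levels rose in part. Of 24 tested interferon response genes 7 were higher and 2 lower, where 4.65% and 4.61% of all genes tested were. Without ptgs1-KO replicate 1 or 2 or scramble replicate 1 or 2, 4 were higher. The RNA sensor Ddx58 was at 2.14, 2.45 and 2.75 RPKM in scramble and 3.75, 4.19 and 4.21 RPKM in ptgs1-KO (0.55 ± 0.11, adjusted p = 0.00747), and Samd9l (0.74), Dtx3l (0.65) and Lgals3bp (0.60) also rose. Ifitm1 was at 34.2, 23.9 and 25.9 against 4.89, 6.49 and 5.82 RPKM, and the DNA sensor Aim2 fell by 0.54. The apoptosis inhibitor Birc3, a target of NF-kB, rose by 1.30, but 2 of 20 tested NF-kB genes were called. Of 10 tested chemokine and interleukin genes 1 was higher and 2 lower.

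In most housekeeping families few genes were called. For the unadjusted counts below, 2663 of all 11282 genes tested had an unadjusted p under 0.05 in either direction. Of 40 ribosome biogenesis genes limma called 0, with 4 lower and 0 higher at an unadjusted p under 0.05; of 85 cytosolic ribosomal protein genes 1 was lower, of 54 splicing factors 2 were lower and of 25 cholesterol synthesis genes 1 was lower. Proteasome subunits were below scramble in 34 of 34 genes, with a median of -0.17, and 4 were called lower (11.8%, against 4.61% of all genes tested); without ptgs1-KO replicate 1 or any 1 of the scramble samples 1 was. Of 28 heat shock and chaperonin genes 3 were lower (10.7%), and 0 in limma without scramble replicate 1; with all samples 6 were lower and 0 higher at an unadjusted p under 0.05. Mitochondrial ribosomal proteins had a median of -0.18, and 1 of 76 was lower. At an unadjusted p under 0.05, 17 of the 76 and 15 of the 34 proteasome subunits were lower, and 0 of either were higher. Oxidative phosphorylation subunits had a negative median of -0.22, with 71 of 77 negative, but 1 was called (Atp5f1, on chromosome 3). At an unadjusted p under 0.05, 22 of these subunits were lower and 1 higher. Their median per sample was 0.13, -0.07 and -0.06 in scramble and -0.28, -0.07 and -0.35 in ptgs1-KO, so that replicate 2 lay within the controls. Histone genes and small nucleolar RNAs had medians of 0.30 and 0.57 with all samples and of -0.09 and -0.15 without ptgs1-KO replicate 3, and the 35 tested small nucleolar RNAs had 0 calls in limma, with 2 at an unadjusted p under 0.05. Solute carriers, the largest family of transporters, counted 8 higher and 13 lower of 160 (8.13% lower), and zinc finger proteins 7 higher and 4 lower of 293.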

How the data were processed

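RNA of 12 cultures was made into what the paper calls mRNA libraries and sequenced as 101 bp paired-end reads on an Illumina HiSeq 2500. Per the labels the libraries came from a TruSeq and a NEXTflex directional kit, which cannot both describe 1 library. The deposited table holds RPKM values made by the authors, with 1 column a sample; the submitters' processing notes name mm10, and the aligner, counter and annotation are not given in the sources used here. RPKM sums were nearly equal between samples, so another scaling to a fixed total cannot be told apart from RPKM.

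Genes averaging 1 RPKM or more in the 12 samples were fitted as log2(RPKM + 1) in limma 3.58.1 (R 4.3.3; 4 groups, empirical Bayes with trend, Benjamini-Hochberg adjustment at 0.05). A fold change on this scale understates the change of low genes. Of the tested genes 10707 (94.9%) were placed on a chromosome through RefSeq (GRCm38.p6). Replicate numbers came from the labels and were not used to pair the samples in the main fit. The study's methods compared groups by analysis of variance on single genes, which was not used here. The genes and the 62 lists and 24 families were chosen with earlier results of these data known. Named were the 3 targets, the 15 largest rises and falls with no overlap between the 3 and 3 samples and without placeholder symbols (80 of the called genes), and up to 6 called members of each list by size. Alternatives changed the pseudocount, filter, scaling, samples and variance model.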

Additional observations from a re-analysis of the deposited data

Results flagged for a closer look

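The 257 genes checked were the 3 targets, the 15 largest rises and 15 largest falls, and every called member of the lists. All 257 were called in ptgs1-KO, and the same count over all genes tested was not made. Of them, 11 were called in opposite directions against scramble in ptgs1-KO and in another knockout line, each by at least 1 on the log2 scale. These 11 also differed between both lines in the direct limma test (adjusted p at most 6.27e-07). Both differences use the same scramble samples, and the difference between the lines does not. The difference ptgs1-KO minus ptges-KO was -5.77 for Adm, -5.04 for Ctsc and -3.46 for Aldh1l2. Gpnmb was higher by 3.55, Aqp1 by 3.35, Grem1 by 2.78 and Fn1 by 2.55 in ptgs1-KO than in ptges-KO. Against ptgs2-KO, Col5a2 differed by -4.87 and Npnt by -2.33, whereas Igfbp3 was higher by 2.66 and Slit3 by 2.18. No part of these differences was tested for a cause, and Npnt lies on chromosome 3. With 3 samples a group, no sample was tested as standing apart within its group.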

How the results depend on the processing

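The count of changed genes (1045) was 582 with a filter at a mean of 10 RPKM, 1570 after quantile normalization and 2004 after the trend with transcript length was removed, an alternative chosen after seeing the data; leaving out 1 sample gave 645 to 1008. Higher genes (525) numbered 274, 805 and 1014 under those 3 settings and 307 to 653 with 1 sample left out. Lower genes (520) numbered 308 with the filter at 10 RPKM, 990 without the length trend, 335 without the genes of chromosome 3 (also chosen after seeing the data) and 305 to 456 with 1 sample left out. Genes that differed at least 2-fold (140) numbered 224 with a pseudocount of 0.1 and 42 with the filter at 10 RPKM. Fewer genes were tested under the stricter filter; the cause was not tested for the other settings. The replicate block gave 1105 changed genes, 577 higher and 528 lower. Same-numbered scramble and ptgs1-KO samples correlated at -0.054, -0.021 and 0.026 in their deviations. In some lists, though not all, replicate 1 was the highest of its line in every knockout. The Wnt medians against scramble were 0.29, 0.10 and -0.02 in ptgs1-KO replicates 1, 2 and 3. They were -0.0009, -0.11 and -0.26 in ptgs2-KO, -0.04, -0.33 and -0.37 in ptges-KO, and -0.04, 0.02 and 0.002 in scramble. Whether replicate numbers stand for a shared batch was not tested. Ptgs2 kept its direction but was not called without a filter (-0.36, adjusted p = 0.0604), with only the 6 samples in the fit (-0.36, adjusted p = 0.0805) or without the variance trend (-0.36, adjusted p = 0.0501), and ranged from -0.44 to -0.24 with 1 sample left out. Scaling moved the median of all genes to between -0.006 and 0.016, and leaving out ptgs1-KO replicate 3 to 0.054; the share of higher calls was 50.2%, 64.8% without that replicate and 40.2% without ptgs1-KO replicate 1. Ptgs1 and Ptges kept their calls under every setting run, and the counts against ptgs2-KO (2665) and ptges-KO (3409) ranged from 1934 to 3976 and from 2483 to 4382. The 254 other genes among the largest rises and falls and the called list members gave 4226 values under the alternatives. Of these values, 3731 kept their call, 495 lost it and 0 reversed. All 254 were chosen as called in the main fit, so none could gain a call and a reversal was unlikely from the start. With 3 samples a group and no counts, differences of low genes stay imprecise.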
